A study of Rattus norvegicus with 18 samples.

Results

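Cadherins and protocadherins were read out in rat hippocampal neurons in which a drug-controlled form of the transcription factor MEF2 had been switched on. The genes were taken by name: all probe sets whose single annotated gene symbol is a Cdh or Pcdh family symbol, with the Cdhr genes left out. This gave 46 probe sets for 33 genes, out of 31042 probe sets in all, of which those with 1 symbol stood for 14217 genes. For 9 of the genes there was more than 1 probe set, and 24 had 1. Where genes are counted, each stands by the probe set with its highest mean level, called its main probe set.

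Cadherins are membrane proteins whose outer repeats bind cadherins on neighbouring cells in the presence of calcium, and whose inner tails bind catenins, which link them to actin. Type I classical cadherins such as N-cadherin hold synaptic membranes together, and type II classical cadherins are expressed in subsets of neurons and mark particular circuits. Protocadherins lack the catenin-binding tail. The non-clustered ones are separate genes, several of which recruit the WAVE complex to actin, and Pcdh10 is known from mouse neurons as a step in MEF2-driven synapse elimination. The clustered ones (Pcdha, Pcdhb, Pcdhg) share gene clusters and give single neurons distinct surface identities.

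The neurons were grown in dissociated culture, received a lentivirus on day 3 and were given 4-hydroxytamoxifen (4OHT), the ligand, on day 10 for 0, 1 or 2.5 h. The active construct was MEF2-VP16-ER, a fusion of MEF2 with the VP16 activation domain and an estrogen receptor domain that responds to 4OHT. The control construct was MEF2deltaDBD-VP16-ER, from which the DNA-binding domain had been deleted, so control neurons also received a virus, VP16, the receptor domain and the ligand. Each of the 6 groups had 3 arrays of Affymetrix type, called biological replicates in the labels. Nothing more is said of their origin, so p-values measure the spread between these samples. Both constructs were delivered by virus, and VP16 is a viral activator. These are bulk cultures, in which fewer cells of a type and less RNA per cell cannot be told apart.

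The deposited values are linear intensities. Changes are given in log2 units as differences of log2(intensity + 16), where the added 16 shrinks the changes of dim probe sets. Levels are compared only between arrays for the same probe set. Array medians lay between 190.4 and 197.0. A change is said to have risen or fallen only at a limma adjusted p under 0.05 over all probe sets. As a check of the neuron label, all 8 neuron markers lay above the median probe set, with Map2 between 11759 and 13892 over the 18 arrays. Markers of other cells were also present, with 6 of 7 measured astrocyte markers, 4 of 7 oligodendrocyte markers, 4 of 8 fibroblast markers and 2 of 8 microglia markers above the median probe set, and 0 of 7 endothelial ones. Among the cadherins and protocadherins, 29 probe sets lay above the median probe set and 17 at or below it.

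The results turn on 4 genes, Cdh10, Pcdh10, Pcdh17 and Pcdh20. Their promoters are printed because MEF2 acts by binding DNA. These genes also passed a test of change within MEF2-VP16-ER neurons at 2.5 h. Cdh10 passed it with and without the replicate block described below, while Pcdh10, Pcdh17 and Pcdh20 passed it only with the block. Each sequence runs 5′ to 3′ on the gene's own strand from 250 bases before to 50 bases after its annotated start, from RefSeq on GRCr8. The windows are chr2:70355439-70355738 (+) for Cdh10, chr2:130553188-130553487 (+) for Pcdh10, chr15:66632892-66633191 (+) for Pcdh17 and chr15:70840249-70840548 (-) for Pcdh20. Capitals mark TGACG or its reverse complement CGTCA, the core of a cyclic AMP response element half-site, a motif that was chosen after these sequences had been seen.
Cdh10: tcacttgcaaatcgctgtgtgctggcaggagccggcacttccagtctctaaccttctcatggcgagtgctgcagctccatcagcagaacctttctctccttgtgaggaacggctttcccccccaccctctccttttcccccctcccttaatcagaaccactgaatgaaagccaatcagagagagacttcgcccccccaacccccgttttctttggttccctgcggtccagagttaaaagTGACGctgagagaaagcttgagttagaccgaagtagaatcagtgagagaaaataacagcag
Pcdh10: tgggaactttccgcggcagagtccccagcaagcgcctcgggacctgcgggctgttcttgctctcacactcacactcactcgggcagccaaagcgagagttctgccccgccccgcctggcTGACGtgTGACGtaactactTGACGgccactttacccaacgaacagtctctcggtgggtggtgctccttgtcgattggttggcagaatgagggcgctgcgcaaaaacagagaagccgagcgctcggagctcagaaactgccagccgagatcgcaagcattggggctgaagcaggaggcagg
Pcdh17: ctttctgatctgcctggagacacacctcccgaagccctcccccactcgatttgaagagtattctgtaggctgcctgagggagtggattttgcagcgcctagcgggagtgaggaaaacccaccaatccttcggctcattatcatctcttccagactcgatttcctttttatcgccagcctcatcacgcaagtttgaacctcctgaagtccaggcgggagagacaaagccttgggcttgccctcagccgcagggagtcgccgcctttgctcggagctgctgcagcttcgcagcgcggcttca
Pcdh20: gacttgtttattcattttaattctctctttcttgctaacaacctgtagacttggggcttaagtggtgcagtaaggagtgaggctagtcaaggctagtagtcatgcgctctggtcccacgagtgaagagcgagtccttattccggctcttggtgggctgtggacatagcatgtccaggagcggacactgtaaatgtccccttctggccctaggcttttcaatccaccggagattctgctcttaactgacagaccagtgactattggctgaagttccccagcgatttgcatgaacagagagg

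A MEF2-type site, searched as CTA, any 4 bases, then TAG on both strands, was in 0 of these 4 windows. Other forms of the site were not searched. It was in 3.84% of all 33469 promoter windows of the same length and in 1 of the 21 windows found for the 33 genes (4.76%), that of Cdh20. The half-site occurred 1 time for Cdh10 and 3 times for Pcdh10, and was not in the windows of Pcdh17 and Pcdh20. It was in 21.2% of all windows and in 4 of the 21, and 1.11% of all windows held it 3 or more times. With the MEF2-type site in 0 of the 4 windows, the motifs did not overlap there. The share of G and C was 52.3% for Cdh10, 61.0% for Pcdh10, 56.7% for Pcdh17 and 49.3% for Pcdh20, against a median of 51.7% over all windows. These matches describe letters in short windows and were not tested against expression or binding.

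The main comparison asked how far a gene changed from 0 h to 2.5 h in MEF2-VP16-ER neurons beyond its change in control neurons, called the induction below. Cdh10, a type II classical cadherin of neurons, rose. Its intensity was 3778, 3697 and 4114 in MEF2-VP16-ER neurons at 2.5 h, against 2318, 2457 and 2262 in the same neurons at 0 h. In control neurons it was 2396, 1982 and 2162 at 2.5 h, against 2150, 2322 and 2043 at 0 h. The 3 arrays of MEF2-VP16-ER neurons at 2.5 h lay above all 15 others for this gene. The induction of Cdh10 was 0.71 ± 0.10 log2 units (SE, n = 3 per group over 4 groups, a fold of 1.64, limma adjusted p = 0.00506), made of a change of 0.72 with MEF2-VP16-ER and of 0.00 with the control. By replicate number it was 0.55, 0.81 and 0.78. Cdh10 had the only 1 of the 46 probe sets that passed, and 0.177% of all 31042 probe sets were called in this comparison.

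**Figure D1:**
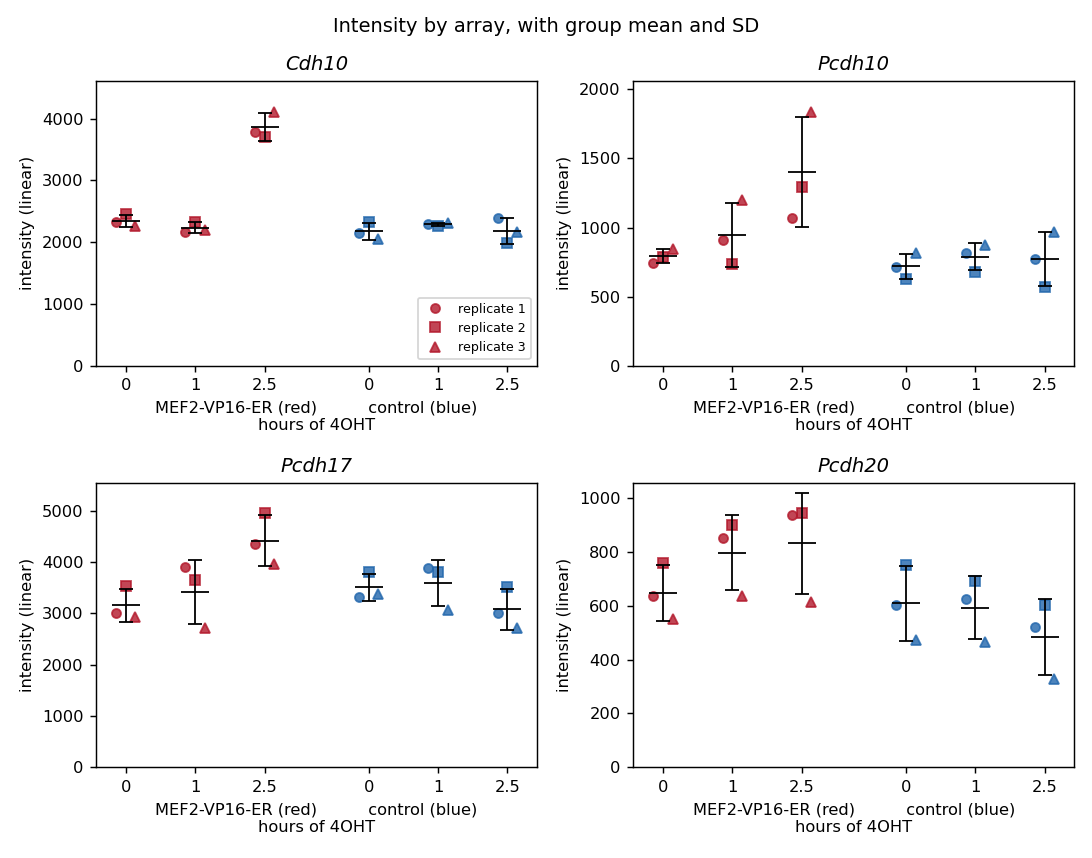
Deposited intensity (linear scale) of Cdh10, Pcdh10, Pcdh17 and Pcdh20, 1 probe set each, in each of the 18 arrays by hours of 4OHT, with MEF2-VP16-ER neurons in red on the left and control neurons in blue on the right; marker shapes give replicate numbers, and bars give the group mean and SD (n = 3). The Cdh10 arrays of MEF2-VP16-ER neurons at 2.5 h, between 3697 and 4114, lie above every other array, while for Pcdh20 the MEF2-VP16-ER arrays at 2.5 h and 0 h overlap and every group has replicate 2 highest and replicate 3 lowest.

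Cdh10 moved late. At 1 h its intensity was 2168, 2329 and 2202 in MEF2-VP16-ER neurons, against 2295, 2263 and 2301 in control neurons. The groups overlapped, and the induction at 1 h was -0.15 ± 0.10 (adjusted p = 0.996). The induction at 2.5 h exceeded that at 1 h by 0.86 ± 0.10 (adjusted p = 0.00292), a comparison added after the values had been seen, in which 0.0419% of all probe sets were called. Within MEF2-VP16-ER neurons the gain of 0.72 at 2.5 h over 0 h passed (adjusted p = 7.50e-05), where 0.789% of all probe sets did. Between the constructs at 2.5 h, Cdh10 was higher by 0.82 in MEF2-VP16-ER neurons (adjusted p = 1.13e-05), where 1.28% of all probe sets were called. Cdh10 was the 1 gene of the 33 called in each of these comparisons.

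The gene next to Cdh10 on the chromosome did not pass. Cdh12, another type II cadherin of the brain, neighbours Cdh10 with 0 protein-coding genes between them in the GRCr8 RefSeq table. Its intensity was 298, 204 and 143 in MEF2-VP16-ER neurons at 2.5 h, against 236, 135 and 127 in control neurons at 2.5 h. The groups overlapped, and the induction of Cdh12 was 0.20 ± 0.46 with a 95% interval of -0.78 to 1.18 (adjusted p = 1.00). Cdh6, a type II cadherin 5 protein-coding genes away, had an induction of 0.32 ± 0.12 (adjusted p = 0.715).

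Replicate numbers mattered for the protocadherins. Arrays with the same number deviated together from their group means in all 18 pairs that enter the comparison at 2.5 h (correlations of 0.214 to 0.749), so the fit was also made with replicate number as a block, which compares arrays within a number. With the block, 6 of the 46 probe sets passed at 2.5 h, where 0.937% of all probe sets did: that of Cdh10, all 3 of Pcdh17 and both of Pcdh20. All 6 had a positive induction.

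Pcdh17 encodes a non-clustered protocadherin that sits at axons and synapses of the mouse forebrain. Its main probe set gave 4350, 4953 and 3959 in MEF2-VP16-ER neurons at 2.5 h, against 3005, 3529 and 2939 at 0 h. In control neurons it gave 3010, 3511 and 2724 at 2.5 h, against 3319, 3813 and 3385 at 0 h. Every array of MEF2-VP16-ER neurons at 2.5 h lay above those of these 3 other groups. Inductions of the 3 probe sets were 0.47, 0.67 and 0.74, with adjusted p = 0.747, 0.425 and 0.376 without the block and 0.0139, 0.00780 and 0.00617 with it. The probe sets with 0.67 and 0.74 were designed on the same transcript record, so they are not separate evidence. Within MEF2-VP16-ER neurons the 3 changes at 2.5 h lay between 0.34 and 0.52, and in control neurons between -0.22 and -0.13. At 1 h the inductions of the 3 were 0.03 to 0.07, and for 2 of them the gain at 2.5 h over 1 h passed with the block (0.60 and 0.71, adjusted p = 0.0357 and 0.0195), where 0.399% of all probe sets did.

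Pcdh20, another non-clustered protocadherin, varied with replicate number. Its main probe set gave 938, 944 and 615 in MEF2-VP16-ER neurons at 2.5 h, against 636, 757 and 551 at 0 h. In control neurons it gave 520, 602 and 327 at 2.5 h, against 604, 750 and 473 at 0 h. Replicate 3 was the lowest of its group in each of these groups, and within each number the value was higher at 2.5 h than at 0 h with MEF2-VP16-ER and lower with the control. The dimmer probe set gave 215, 244 and 167 in MEF2-VP16-ER neurons at 2.5 h, against 118, 121 and 67.8 in control neurons at 2.5 h, and these groups did not overlap. Inductions were 0.68 and 0.85, with adjusted p = 1.00 and 0.922 without the block and 0.00420 and 0.000811 with it. About equal parts came from either construct: the changes were 0.34 and 0.41 with MEF2-VP16-ER and -0.34 and -0.43 with the control, of which those with the control did not pass with the block (adjusted p = 0.454 and 0.155).

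Pcdh20 also stood higher early. At 1 h its main probe set gave 850, 901 and 638 in MEF2-VP16-ER neurons, against 624, 691 and 465 in control neurons. The groups overlapped, each number was higher with MEF2-VP16-ER, and the inductions at 1 h were 0.32 and 0.47 for the 2 probe sets (adjusted p = 0.996 for both). None of the 46 probe sets was called for the induction at 1 h, where 0.00322% of all probe sets were, nor for 1 h minus 0 h within MEF2-VP16-ER neurons without the block, where 0.0354% were. At an unadjusted p under 0.05, 2 of the 46 passed for the induction at 1 h, where 4.70% of all probe sets did, and 3 of the 46 for 1 h minus 0 h in MEF2-VP16-ER neurons, where 4.17% did. Both counts are near what those shares give for 46 probe sets.

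**Figure D2:**
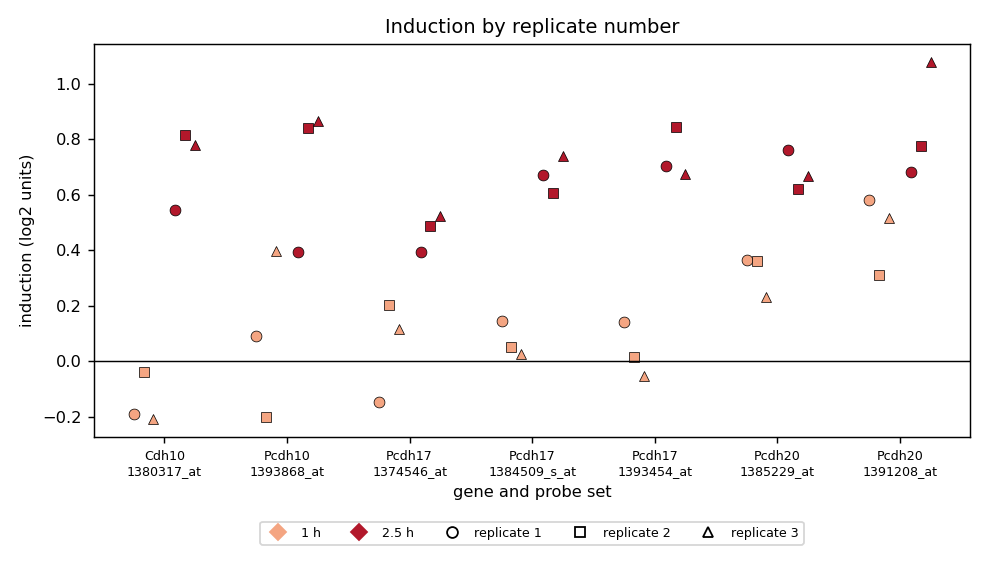
Induction in log2 units (change since 0 h with MEF2-VP16-ER, less the change with the control of the same replicate number) for the 7 probe sets of Cdh10, Pcdh10, Pcdh17 and Pcdh20; pale markers are 1 h, dark markers 2.5 h, and shapes give replicate numbers. All dark markers lie above 0, from 0.39 to 1.08, while the pale markers of Cdh10 lie below 0 and those of Pcdh20 above 0.

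Pcdh10, the protocadherin known from mouse neurons to bring PSD-95 to the proteasome after MEF2 activation, had a gain that differed between replicate numbers. Its intensity was 1066, 1294 and 1840 in MEF2-VP16-ER neurons at 2.5 h, against 744, 787 and 847 at 0 h. In control neurons it was 773, 571 and 965 at 2.5 h, against 712, 629 and 815 at 0 h. All 3 arrays of MEF2-VP16-ER neurons at 2.5 h lay above those of these other groups, with replicate 3 the highest. The induction was 0.70 ± 0.30 (adjusted p = 0.954 without and 0.0885 with the block), with values of 0.39, 0.84 and 0.87 by replicate number, so it did not pass. Within MEF2-VP16-ER neurons the gain at 2.5 h was 0.77 (adjusted p = 0.165 without and 0.00183 with the block). Between the constructs at 2.5 h the difference was 0.84 (adjusted p = 0.0778 without and 0.000661 with the block), and leaving out replicate 1 of MEF2-VP16-ER or replicate 3 of the control at 2.5 h made it 1.02 and called without the block (adjusted p = 0.0456 and 0.0487).

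With the block, 7 of the 46 probe sets rose within MEF2-VP16-ER neurons at 2.5 h, where 2.33% of all probe sets were called and 1.33% rose: those of Cdh10, Pcdh10, Pcdh17 and Pcdh20. Between the constructs at 2.5 h, 9 were higher with MEF2-VP16-ER and called with the block, where 2.46% of all were, or 3.49% in either direction. The 2 added genes were Cdh2, which encodes N-cadherin, and Pcdh8, a protocadherin that is known from rat neurons to promote the uptake of N-cadherin from synapses. Cdh2 gave 4814, 4847 and 5112 in MEF2-VP16-ER neurons at 2.5 h, against 4267, 4047 and 4295 in control neurons at 2.5 h. These groups of Cdh2 did not overlap, and the difference was 0.23 (adjusted p = 0.0989 without and 0.0329 with the block). At 0 h Cdh2 was also higher on average with MEF2-VP16-ER, at 4492, 4876 and 4833 against 4311, 4171 and 4622 in control neurons, and its induction was 0.11 ± 0.08 (adjusted p = 1.00). These values of Cdh2 are from its main probe set, and its other 2 probe sets were not called in this comparison, with or without the block. At 2.5 h they gave 2431, 2127 and 1953 with MEF2-VP16-ER against 1879, 1699 and 1887 with the control, and 122, 106 and 117 against 94.8, 110 and 105. Pcdh8 gave 1098, 1196 and 847 in MEF2-VP16-ER neurons at 2.5 h, against 835, 998 and 699 in control neurons at 2.5 h. Its groups overlapped, the difference was 0.31 (adjusted p = 0.678 without and 0.0338 with the block), and its induction was 0.12 ± 0.24 (adjusted p = 1.00). None of the 8 neuron markers was called singly between the constructs at 0 h or at 2.5 h, with or without the block. Their summed level, which was not tested, lay apart at 2.5 h. It was between 69449 and 71019 in MEF2-VP16-ER neurons at 2.5 h and between 65594 and 67400 in control neurons at 2.5 h. The groups were already apart at 0 h, at 68512 to 73545 with MEF2-VP16-ER and 64034 to 68068 with the control, and overlapped at 1 h, at 67133 to 69586 with MEF2-VP16-ER and 65080 to 69673 with the control.

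Single markers of other cells also passed with the block in these comparisons. Olig2, an oligodendrocyte lineage marker, fell by 0.42 within MEF2-VP16-ER neurons at 2.5 h (limma adjusted p = 0.983 without and 0.0196 with the block). It gave 126, 118 and 156 at 2.5 h against 158, 162 and 235 at 0 h. The change was upward in 3 of the 7 measured oligodendrocyte markers, with a median of -0.13. Between the constructs at 2.5 h, Dcn of fibroblasts was lower with MEF2-VP16-ER (-0.58, adjusted p = 0.684 without and 0.00106 with the block). Sox10 of oligodendrocytes was lower too (-0.47, adjusted p = 0.0349 with the block) and was not called without it. In that comparison 4 of 8 fibroblast markers and 1 of 7 measured oligodendrocyte markers were higher with MEF2-VP16-ER. Before the ligand Dcn gave 627, 669 and 366 with MEF2-VP16-ER, against 871, 924 and 530 with the control, and its induction was -0.11. Sox10 gave 202, 245 and 328 with MEF2-VP16-ER at 0 h, against 247, 209 and 436 with the control, and its induction was -0.32. Neither induction passed, and the part of these markers in the results for the cadherins and protocadherins was not tested.

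Apart from the tests, arrays that did not overlap were counted. At 2.5 h, all 3 MEF2-VP16-ER arrays lay above all 3 control arrays in 10 of the 46 probe sets (21.7%). Over all probe sets the share was 6.54%. The 10 came from Cdh2, Cdh6, Cdh10, Cdh13, Pcdh10, Pcdh17 and Pcdh20. Cdh2, Pcdh17 and Pcdh20 each gave more than 1 of the 10, and no share per gene was computed. In 3 of the 46 (6.52%), from Cdh1, Cdh11 and Cdh17, the MEF2-VP16-ER arrays lay below, against 5.99% of all. For Cdh1 and Cdh11 these were dimmer probe sets than the main ones. That of Cdh1 gave 29.4, 30.4 and 29.8 against 31.9, 31.9 and 31.3 in control neurons. That of Cdh11 was already lower at 0 h, at 482, 412 and 485 with MEF2-VP16-ER against 529, 593 and 603 with the control. Against MEF2-VP16-ER neurons at 0 h, those at 2.5 h lay wholly above in 4 of the 46 (8.70%), from Cdh10, Pcdh10 and Pcdh17, where 5.76% of all did, and wholly below in 1 (2.17%), from Pcdhb6, where 5.53% did. Pcdh17 gave more than 1 of the 4 that lay wholly above. The share below is thus close to or under the background in both comparisons.

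Inductions at 2.5 h were also summarised by class, and differences between the classes were not tested. Over all 33 genes, 23 inductions were positive (69.7%) with a median of 0.07, against 48.0% and -0.01 over all 14217 genes. Non-clustered protocadherins had the highest median, 0.38, with 7 of 8 positive, and type II classical cadherins came next with 0.26 and 7 of 8. In non-clustered protocadherins the median change was 0.23 with MEF2-VP16-ER alone and -0.15 with the control, and in type II cadherins 0.12 with MEF2-VP16-ER alone and -0.13 with the control, against -0.01 and 0.00 over all genes. Type I cadherins had 3 of 4 positive and a median of 0.04, and the other cadherins 4 of 4 and 0.10. Clustered protocadherins had 2 of 9 positive, with a median of -0.02. At 1 h, 12 of the 33 were positive (36.4%, median -0.03), against 37.8% and -0.04 over all genes. Of the 33, 1 rose and 0 fell at 2.5 h without the block, where 29 rose and 11 fell of all 14217 genes. With the block 3 rose and 0 fell, where 102 rose and 81 fell of all genes.

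**Figure D3:**
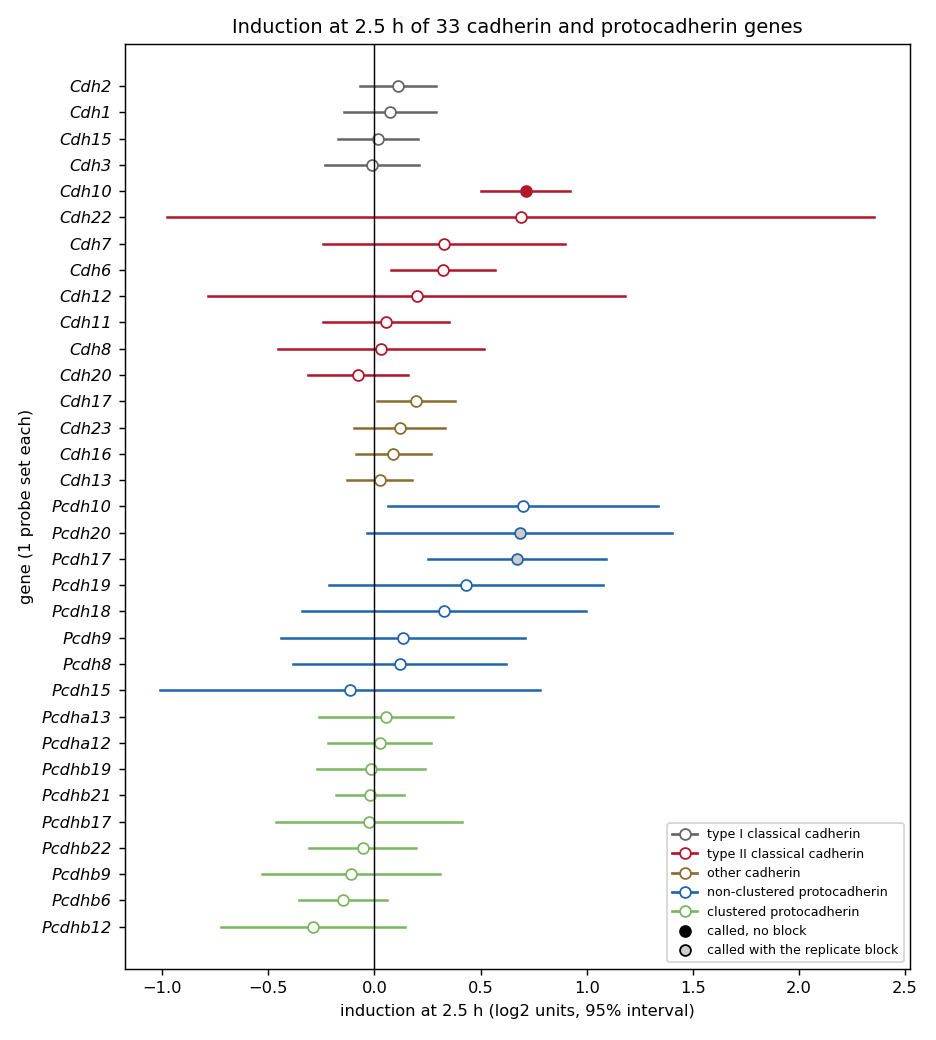
Induction at 2.5 h in log2 units with its 95% interval (limma, no block) for each of the 33 genes, 1 probe set each, grouped by class from type I cadherins at the top to clustered protocadherins at the bottom; the filled point passed without the block, and grey points passed with it. The interval of Cdh10 runs from 0.50 to 0.92, and that of Cdh22, from -0.98 to 2.36, is the widest drawn.

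Among the other type II cadherins, Cdh22 had an induction close to that of Cdh10 but a wider error. Cdh22 gave 1815, 857 and 456 in MEF2-VP16-ER neurons at 2.5 h, against 1036, 496 and 456 in control neurons at 2.5 h. At 0 h it gave 1147, 678 and 439 in MEF2-VP16-ER neurons, against 1080, 959 and 468 in control neurons. The spread between replicate numbers was wider than any difference between groups, and the induction was 0.69 ± 0.78 (adjusted p = 1.00 without and 0.353 with the block). Its second probe set had an induction of -0.01, which lies within the 95% interval of the first (-0.98 to 2.36). Cdh7 had an induction of 0.33 ± 0.27. Cdh11, a cadherin of mesenchyme that is also found at synapses, had 0.05 ± 0.14. Cdh8, a cadherin of forebrain circuits, had 0.03 ± 0.23, and Cdh20 had the lowest value of the class, -0.08 ± 0.11. None of these 4 passed.

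The type I cadherins and the class of other cadherins gave no call for the induction. Of the genes below, Cdh1, Cdh3 and Cdh15 are type I classical cadherins. Cdh13 is a cadherin held to the membrane by a lipid anchor. Its main probe set gave 5794, 5386 and 5126 in MEF2-VP16-ER neurons at 2.5 h, against 4850, 5429 and 4995 in control neurons at 2.5 h, and these overlapped. The probe set of Cdh13 counted above as not overlapping was a dimmer one, with 3732, 3572 and 3390 against 3114, 3197 and 3222. At 0 h that one gave 3678, 3663 and 3342 against 3242, 3453 and 3113. The 3 probe sets of Cdh13 had inductions between -0.06 and 0.04. The epithelial cadherins lay below the median probe set. Cdh1 (E-cadherin) gave 41.9, 40.8 and 41.3 in MEF2-VP16-ER neurons at 2.5 h, against 43.9, 45.0 and 40.7 in control neurons, and Cdh3 (P-cadherin), Cdh16 and Cdh17 lay between 71.2 and 126 over all arrays. The inductions of these 4 genes, by their main probe sets, were between -0.01 and 0.19, and none passed. Cdh15, known from muscle, had 0.02, and Cdh23, a cadherin of hair-cell tip links, had 0.12.

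The remaining non-clustered protocadherins gave smaller values. Pcdh19, a protocadherin whose human counterpart is linked to epilepsy, gave 2244, 2004 and 1776 in MEF2-VP16-ER neurons at 2.5 h, against 1815, 1463 and 1420 in control neurons at 2.5 h. The groups overlapped by 1 array, and its induction was 0.43 ± 0.30 (adjusted p = 1.00 without and 0.314 with the block). Pcdh18 had 0.33 ± 0.31 and Pcdh9 0.13 ± 0.27, with 0.07 in the second probe set of Pcdh9. Pcdh15, the partner of Cdh23 in hair-cell tip links, had -0.12 ± 0.42. Pcdh8, Pcdh17, Pcdh20 and Pcdh9 follow each other on chromosome 15 with 3, 3 and 1 protein-coding genes between neighbours, and the 2 outer ones did not pass for the induction in either fit.

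The clustered protocadherins did not pass in any of the 9 comparisons, with or without the block. Pcdhb12 had the most negative induction of the 33 genes, -0.29 ± 0.20, but its main probe set was 85.2, 93.9 and 107 in MEF2-VP16-ER neurons at 2.5 h, against 105, 72.3 and 94.5 in control neurons at 2.5 h, and these overlapped. The other probe set of Pcdhb12 had 0.10. Among the clustered ones Pcdhb6 followed with -0.15 ± 0.10 and Pcdhb9 with -0.11 ± 0.20. Pcdha12 and Pcdha13 had 0.02 and 0.05. Probe sets that several Pcdha or Pcdhg symbols share are not counted here and are described in the closing section.

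**Figure D4:**
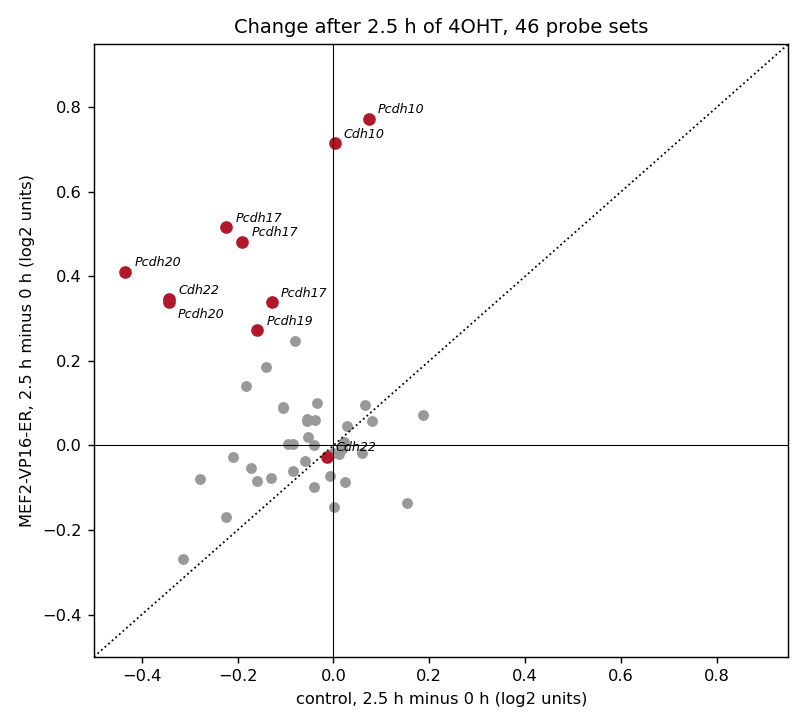
Change from 0 h to 2.5 h of 4OHT in log2 units for the 46 probe sets, in control neurons on the horizontal axis and in MEF2-VP16-ER neurons on the vertical axis; red points are probe sets of the 6 labelled genes, grey points the others, and the dotted line marks equal changes. Cdh10 and Pcdh10 lie high near a control change of 0 (0.00 and 0.07), while Pcdh17 and Pcdh20 lie above 0 with MEF2-VP16-ER and below 0 with the control.

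The direction of change was also followed by replicate number. The change at 2.5 h was upward in all 3 numbers with MEF2-VP16-ER and downward in all 3 with the control in 7 of the 46 probe sets (15.2%), from Cdh6, Cdh17, Cdh22, Pcdh17 and Pcdh20, against 2.02% of all probe sets. Cdh10 and Pcdh10 were not among them, since their control changes went both ways. Pcdh17 and Pcdh20 each gave more than 1 of the 7, and no share per gene was computed. Cdh6 was dim, at 94.4, 86.6 and 102 in MEF2-VP16-ER neurons at 2.5 h, against 82.6, 73.9 and 73.4 in control neurons. Cdh17 was dim too and at 0 h already lower with MEF2-VP16-ER, at 73.4, 72.9 and 78.7 against 87.4, 90.1 and 101 with the control. In the 3 comparisons that hold no active MEF2 with ligand, control neurons at 1 h and at 2.5 h against 0 h and the constructs at 0 h, 0 of the 46 and 0% of all probe sets were called by limma without the block, and 0 of the 46 with it. At an unadjusted p under 0.05 these comparisons gave 1, 3 and 4 of the 46 and 840, 667 and 2736 of all probe sets. At 0 h 21 of the 33 genes lay higher with MEF2-VP16-ER (63.6%, median 0.04), against 60.3% and 0.03 over all genes.

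Partners of the cadherins were described from lists. Of 13 measured catenins and plakophilins, which bind cadherin tails, 10 had a positive induction (median 0.04) and 0 passed. Beta-catenin (Ctnnb1) had 0.03 and the neuronal delta-catenin (Ctnnd2) 0.12. Pkp4, an armadillo protein of the same family, was higher in MEF2-VP16-ER neurons than in control neurons at 2.5 h by 0.35 (adjusted p = 0.0112), with 2333, 2346 and 2193 against 1850, 1736 and 1776 in control neurons, and its induction was 0.24 (adjusted p = 0.864). Among 19 measured other genes of the cadherin superfamily, 10 inductions were positive (median 0.00), and Fat1, a giant atypical cadherin, stood apart. Fat1 gave 2563, 2361 and 2961 in MEF2-VP16-ER neurons at 2.5 h, against 2048, 1428 and 1809 in control neurons at 2.5 h, and these did not overlap. That difference was 0.58 (adjusted p = 0.0281), and the induction was 0.63 (adjusted p = 0.351 without and 0.0222 with the block). Within MEF2-VP16-ER neurons Fat1 rose by 0.57 from 0 h to 2.5 h (limma adjusted p = 0.0435 without and 0.00149 with the block). It was the 1 gene of the 19 called there.

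Of the 11 members of the WAVE complex, which protocadherins bind, 5 had a positive induction (median -0.02), and Cyfip1 and Cyfip2 had -0.11 and -0.07. Of 12 CTCF and cohesin genes, which set promoter choice in the protocadherin clusters, 5 were positive (median -0.02), with Ctcf at -0.06. Of 10 measured proteases that cut cadherins 3 were positive (median -0.02), with Adam10 at -0.02. No gene of these 3 lists passed for the induction. In the list of the MEF2, FMRP and Pcdh10 synapse elimination pathway, which holds Pcdh10 itself, 8 of 12 inductions were positive (median 0.07) and 0 passed. Its Mdm2, the ubiquitin ligase for PSD-95, had 0.19, Fmr1, which encodes FMRP, 0.13, and Dlg4, which encodes PSD-95, -0.09. Mef2a was higher in MEF2-VP16-ER neurons than in control neurons at 2.5 h by 0.54 (adjusted p = 0.0241), with 3308, 3642 and 4001 against 2813, 2164 and 2537 in control neurons. At 0 h Mef2a gave 3000, 2754 and 2581 with MEF2-VP16-ER, against 2643, 2628 and 2139 with the control, and these overlapped. Its change at 2.5 h within MEF2-VP16-ER neurons was 0.39 (limma adjusted p = 0.212 without and 0.0522 with the block). Whether the probes of Mef2a detect the construct was not tested.

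Genes whose level followed that of Cdh10 most closely over the 6 group means were Elavl2, Mitf, Epha3, Cpeb3 and Dmpk, with Pearson correlations of 0.998, 0.996, 0.994, 0.993 and 0.992 among 365 probe sets whose group means spanned at least 0.5 log2 units. For Pcdh10 they were Itprid2, Oma1, Ankrd50, Osgin2 and Jam3, with 0.995, 0.995, 0.995, 0.994 and 0.992. Between Cdh10 and Pcdh10 the correlation was 0.936, which placed Pcdh10 at rank 83 of the 365 for Cdh10 and Cdh10 at rank 109 for Pcdh10. With Cdh10 it was 0.879 for Pcdh17 and 0.620 for Pcdh20. These describe 6 points taken from the same arrays.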

How the data were processed

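Gene expression was measured in 18 arrays of rat hippocampal neurons, and the deposited table gives 1 intensity per probe set and array on a linear scale, as the authors deposited it. The sources used here do not say how the authors normalized these intensities. The values were used as deposited, as log2(intensity + 16), without a filter. Leaving out 57 Affymetrix controls, 31042 probe sets were tested. Symbols came from the platform annotation, and 31 of the 33 genes were found by gene ID in the RefSeq table of GRCr8. No sample column of the table was left unused.

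The labels gave the groups and replicate numbers. All arrays entered 1 limma model with a mean per group (lmFit and eBayes, 12 residual degrees of freedom, prior 2.89, median residual SD 0.104 log2 units), and p-values were adjusted by Benjamini-Hochberg over all probe sets within a comparison. The median SE of an induction was 0.118, and the number of arrays limits the precision. Replicate numbers in the labels were checked as a pairing: residuals of same-numbered arrays correlated above 0.1 in 44 of 45 pairs, the exception being replicate 2 of MEF2-VP16-ER between 0 h and 1 h (0.068). Comparisons of these groups were not treated as paired. In the others the block is given where it changed a call.

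The genes, lists and rules were chosen with earlier results of these data known. Described singly are Cdh10, Pcdh10, Pcdh17 and Pcdh20, each gene called in any comparison, the 5 largest and 5 smallest inductions at 2.5 h, neuronal members known from the literature and epithelial ones. Cdh4, Cdh5, Cdh9, Pcdh1 and Pcdh7 were not analysed here. Alternatives were pseudocounts of 1 and 64, centring on the median, quantile normalization, a filter on low levels, the robust and trended form of eBayes, keeping 1 probe set per gene or only the groups compared, the block and leaving out arrays. Simulated data covered 31042 probe sets (induction at 2.5 h), with all shifts put in probe sets above the median level. Noise was drawn independently for each array, so it held no shared deviation of same-numbered arrays. The steps recovered 39 of 40 probe sets at a shift of 2 log2 units, 67 of 80 at a shift of 1 and 15 of 80 at a shift of 0.5. They made 4 false calls. Recovery was not simulated for probe sets at or below the median. The simulated fit had no block, so recovery and false calls of the fit with the block were not simulated. The fits ran in limma 3.58.1 under R 4.3.3, and the summaries in Python 3.11.15.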

Additional observations from a re-analysis of the deposited data

Results flagged for a closer look

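For several probe sets the change at 2.5 h differed between the 2 constructs. For Cdh10 the difference was tested: the induction was 0.71 (limma adjusted p = 0.00506), and it exceeded that at 1 h by 0.86 (adjusted p = 0.00292). For 2 probe sets of Pcdh17 and both of Pcdh20, every replicate number went up with MEF2-VP16-ER and down with the control. The differences between those changes were 0.67 and 0.74 for Pcdh17 and 0.68 and 0.85 for Pcdh20, and they passed limma's test with the replicate block (adjusted p = 0.00780 and 0.00617 for Pcdh17, 0.00420 and 0.000811 for Pcdh20) but not without it (0.425 and 0.376 for Pcdh17, 1.00 and 0.922 for Pcdh20).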

How the results depend on the processing

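Cdh10 kept its call for the induction at 2.5 h in all 12 fits without 1 array (0.65 to 0.78, adjusted p = 0.00294 to 0.0236) and in all 9 other alternatives (0.70 to 0.72, adjusted p = 0.00153 to 0.0463). With the replicate block the number of the 46 probe sets called became 6 instead of 1 for the induction at 2.5 h, 7 instead of 1 for 2.5 h minus 0 h in MEF2-VP16-ER neurons, 9 instead of 1 for MEF2-VP16-ER minus control at 2.5 h, 3 instead of 1 for the induction at 2.5 h minus that at 1 h, and 1 (Pcdh20) instead of 0 for 1 h minus 0 h in MEF2-VP16-ER neurons, which was not treated as paired. Over all probe sets the block raised the calls in the same order to 291 instead of 55, 724 instead of 245, 1083 instead of 397, 124 instead of 13 and 58 (0.187%) instead of 11. The block changed no other count of these probe sets. With only the groups of the comparison in the fit, the induction at 2.5 h minus that at 1 h called 0 (Cdh10 0.86, adjusted p = 0.0511); the cause was not tested. Leaving out single arrays gave 1 to 2 calls for MEF2-VP16-ER minus control at 2.5 h, with Pcdh10 added without MEF2-VP16-ER 2.5 h replicate 1 or control 2.5 h replicate 3. Without the block, no alternative called Pcdh17 or Pcdh20. No direction reversed. The second probe sets of Pcdh17 and Pcdh20 have no value where 1 probe set per gene is kept, and the dimmer one of Pcdh20 none under the filter on low levels. Many probe sets at low levels limit what this array can show for the clustered and epithelial genes.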

Other observations

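Probe sets that carry several Pcdha or Pcdhg symbols cannot be given to 1 gene. The 2 of the Pcdha cluster had inductions at 2.5 h of -0.01 and 0.08, and the 2 of the Pcdhg cluster 0.02 and -0.25, and none of the 4 passed with or without the replicate block. The first Pcdhg probe set gave 7075, 6590 and 6684 in MEF2-VP16-ER neurons at 2.5 h, against 6863, 6987 and 6573 in control neurons at 2.5 h, and these overlapped.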
